A study of Mus musculus with 13 samples.

Results

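The 28 genes described here make, sense and export cholesterol. They were chosen by symbol, and all 28 were found among the 55357 genes of the deposited table and passed the filter that left 22876 genes for testing. They fall into 8 enzymes of the early mevalonate path, 11 enzymes from squalene to cholesterol, 4 proteins that control the transcription factor SREBP2, 1 sterol carrier and 4 genes of cholesterol efflux. No lipoprotein receptor is among them, so uptake is covered only by neighbouring genes near the end. Libraries were made from ribosome-depleted total RNA of mouse tails, described by the submitters as lymphedema tissue, the swelling that follows failed lymph drainage. All samples were labelled day 28 after TNT and an age of 12 weeks. The group labelled TNTProx1 had 6 samples and the group labelled TNTSham had 7. Prox1 is the transcription factor of lymphatic endothelial identity. The labels do not spell out TNT and name no strain, construct, driver or shared treatment. They do not say if each sample is 1 animal, so p-values measure the spread between these samples, which may be technical.

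Cells build cholesterol from acetyl-CoA through mevalonate and isoprenoid diphosphates to squalene, which is then closed into a ring and trimmed to cholesterol. SREBP2, encoded by Srebf2, is held in the endoplasmic reticulum by Scap and the Insig proteins while sterol is plentiful. When sterol is scarce it moves to the Golgi, is cut free and turns on the enzymes of the path together. Excess cholesterol is turned into oxysterols, which activate the liver X receptors Nr1h2 and Nr1h3 and with them the export pumps Abca1 and Abcg1. In skin, keratinocytes make cholesterol for the barrier and sebaceous gland cells make large amounts of lipid.

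Library totals ran from 34.97 to 48.01 M counts in TNTProx1 and from 29.69 to 47.87 M counts in TNTSham (M, mega). TNTProx1 4, 5 and 6 stood apart from the other 10 libraries on the principal component that held most variance (69.6%). Counts on TEC models, provisional gene models still awaiting experimental proof, made up 0.136 to 0.193% of their totals, against 0.565 to 0.745% in TNTProx1 1 to 3 and 0.378 to 0.701% in TNTSham. The nuclear RNA Malat1 stood at 3410 to 3539 CPM in TNTProx1 4 to 6, against 12670 to 16600 CPM in TNTProx1 1 to 3 and 8979 to 16810 CPM in TNTSham. Mitochondrially encoded genes took 0.652 to 1.27% of counts in the 6 TNTProx1 libraries and 1.29 to 2.11% in TNTSham. The part of these measures in the results below was not tested. This split is not a group of the study and was known when the genes were chosen. Values for TNTProx1 1 to 3 and TNTProx1 4 to 6 are therefore given separately beside those of all 13 libraries. Prox1 itself stood at 18.7 to 72.9 CPM in TNTProx1 and 23.4 to 33.1 CPM in TNTSham (CPM, the gene count scaled to a common library size), with TNTProx1 1 and 2 above the TNTSham range and TNTProx1 4 below it, and did not pass (log2 fold change 0.41 ± 0.23 (SE), adjusted p = 0.506). Of the markers fixed for cell types of skin, 11 of 12 keratinocyte genes were found in the table, and none of these or of the 8 sebocyte genes was at 0 in any library.

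Promoter sequence was available for 23 of the 28 genes, and 4 windows are shown because they carry the letters through which SREBP2 is known to act, or belong to the gene with the smallest p. Each is the 250 bases before an annotated start, taken from RefSeq on build GRCm38.p6 and written 5′ to 3′ on the strand of the gene. Capitals mark matches to TCACNCCA, the core of the sterol response element, and to CCAAT, the box bound by NF-Y, the usual partner of SREBP2. Both strands were searched, so a CCAAT box on the other strand reads ATTGG.
Hmgcs1 (chr13:119690101-119690350, plus strand): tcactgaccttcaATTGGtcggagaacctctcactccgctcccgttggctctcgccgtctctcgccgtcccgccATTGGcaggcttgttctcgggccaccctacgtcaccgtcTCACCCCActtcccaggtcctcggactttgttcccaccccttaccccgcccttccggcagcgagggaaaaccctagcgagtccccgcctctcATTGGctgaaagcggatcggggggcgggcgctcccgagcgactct
Msmo1 (chr8:64733579-64733828, minus strand): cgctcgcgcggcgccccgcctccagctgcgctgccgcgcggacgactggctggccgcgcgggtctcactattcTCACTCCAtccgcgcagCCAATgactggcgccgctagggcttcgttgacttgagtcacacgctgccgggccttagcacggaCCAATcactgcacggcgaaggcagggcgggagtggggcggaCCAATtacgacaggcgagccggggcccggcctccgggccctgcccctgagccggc
Srebf2 (chr15:82147019-82147268, plus strand): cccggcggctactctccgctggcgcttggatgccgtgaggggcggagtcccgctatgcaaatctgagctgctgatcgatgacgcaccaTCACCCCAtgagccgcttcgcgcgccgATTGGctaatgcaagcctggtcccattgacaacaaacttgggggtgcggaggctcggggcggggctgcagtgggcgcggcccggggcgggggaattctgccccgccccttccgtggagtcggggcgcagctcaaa
Pmvk (chr3:89454291-89454540, plus strand, the farther upstream of 2 annotated windows): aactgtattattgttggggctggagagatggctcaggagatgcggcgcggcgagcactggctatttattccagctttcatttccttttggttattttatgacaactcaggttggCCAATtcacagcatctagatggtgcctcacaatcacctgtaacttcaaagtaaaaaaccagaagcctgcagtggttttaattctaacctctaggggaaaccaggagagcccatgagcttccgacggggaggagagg

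The sterol core was matched in 3 of the 23 genes, Hmgcs1, Msmo1 and Srebf2, at 137, 177 and 162 bases before the start. It was matched in 4.2% of all 27025 genes with a window. The longer form, the core preceded by A and followed by C, was in 0 of the 23 and in 0.226% of all genes. A CCAAT box was in 15 of the 16 synthesis genes with a window, Acat2 being the gene without, against 37.5% of all genes. A match describes these letters only, and no match describes only this window.

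No cholesterol gene passed the edgeR test between the groups. The quasi-likelihood test called 0 of the 28 genes at an adjusted p under 0.05, as it called 0% of the 22876 tested genes. An unadjusted p under 0.05 was found for 2 of 28, Pmvk lower and Nr1h2 higher, against 12.2% of all tested genes (8.33% higher and 3.92% lower). DESeq2 called 1 of the 28, Pmvk, and 2.7% of its 20456 genes, and limma voom with quality weights called 1, also Pmvk, and 2.5% of all tested genes, so 1 of 28 is near the background of either tool. In no member did all 6 TNTProx1 libraries lie on the same side of the TNTSham range. Over all tested genes all 6 lay below it in 0.214% and above it in 0.398%. The log2 fold changes, TNTProx1 over TNTSham, had a median of -0.11 in the early mevalonate enzymes (7 of 8 below 0), -0.18 in the squalene and sterol enzymes (9 of 11 below 0), 0.02 in the SREBP2 control genes and 0.21 in the efflux genes (4 of 4 above 0). The median over all tested genes was -0.02, with 52.3% below 0.

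These values cover opposite displacements within TNTProx1. In TNTProx1 1 to 3 the 19 synthesis enzymes stood low, and in TNTProx1 4 to 6 they stood near or above TNTSham, Pmvk aside. For 17 of the 19 each of TNTProx1 1 to 3 lay below each of TNTProx1 4 to 6, against 23.1% of all tested genes. Sc5d and Ggps1 were the exceptions. The sum over the 19 genes, in CPM per kilobase of exon, was 216, 153 and 221 in TNTProx1 1 to 3 and 307, 335 and 341 in TNTProx1 4 to 6. In TNTSham it had a lowest value of 244, a median of 294 and a highest value of 386. The first 3 libraries thus lay below the whole TNTSham range and the other 3 inside it. In such bulk tissue, fewer cells that make cholesterol and less RNA per cell cannot be told apart.

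**Figure D1:**
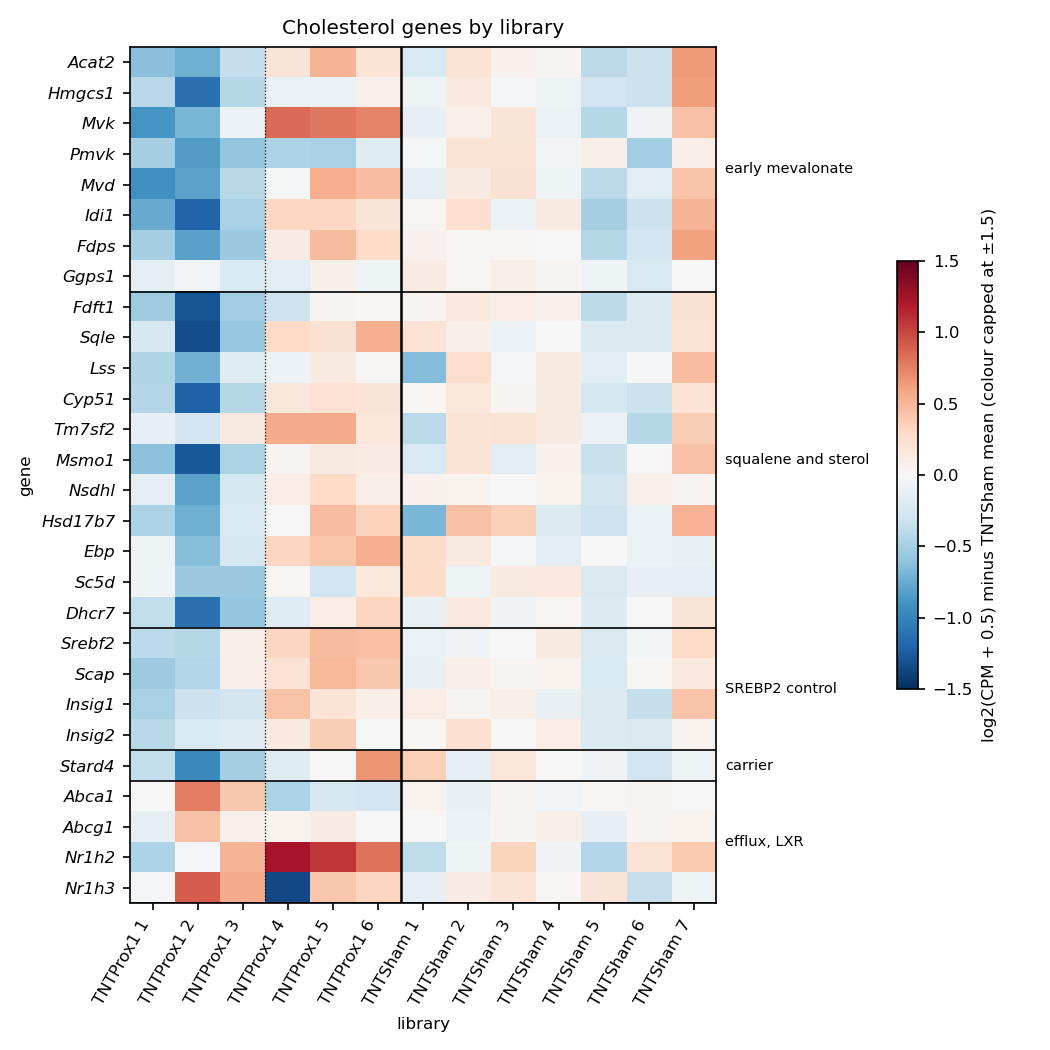
Level of each of the 28 genes (rows) in each library (columns), as log2(CPM + 0.5) minus the TNTSham mean, with blue below and red above that mean. The dotted line parts TNTProx1 1 to 3 from TNTProx1 4 to 6, and the synthesis enzymes are mostly blue left of it, most deeply in TNTProx1 2, which was the lowest of 13 libraries for 15 of the 19.

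Against TNTSham, TNTProx1 1 to 3 alone gave log2 fold changes below 0 in 19 of 19 synthesis enzymes. The median was -0.66 in the early enzymes and -0.53 in the squalene and sterol enzymes. Over all genes tested in these 10 libraries 50.2% were below 0 and the median was -0.001. Both subset comparisons use the same TNTSham libraries. At an unadjusted p under 0.05, 19 of the 28 genes were lower, 16 of them synthesis enzymes, and 2 were higher, against 21.4% of all tested genes, 12.1% lower and 9.34% higher. None passed at an adjusted p under 0.05 in the edgeR test, where 0% of 23853 genes passed, and the smallest adjusted p of a member was 0.0685, that of Dhcr7, a value no gene went below. For 8 of the 19 enzymes all of TNTProx1 1 to 3 lay below the TNTSham range, against 5.8% of all tested genes, and for 0 of the 28 all of them lay above it, against 3.45%.

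TNTProx1 4 to 6 alone, a set added after the data were seen, gave the other direction for most members. Of the 28 genes 6 passed higher and 1 lower in the edgeR test at an adjusted p under 0.05, a comparison in which 14.6% of all 23825 tested genes passed higher and 15% lower. Both directions together, 7 of 28, are near the 29.6% that passed over all tested genes, so this count is not a result about the members. The balance of higher and lower among them was not tested. At an unadjusted p under 0.05 there were 7 higher and 2 lower, against 41.2% of all tested genes (20.2% higher and 20.9% lower), and 8 of the 28 were below 0, against 51%. The 6 were Mvk, Sqle, Ebp, Srebf2, Scap and Nr1h2, and the 1 was Abca1. The medians were 0.27 in the early enzymes, 0.18 in the squalene and sterol enzymes and 0.31 in the SREBP2 control genes.

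**Figure D2:**
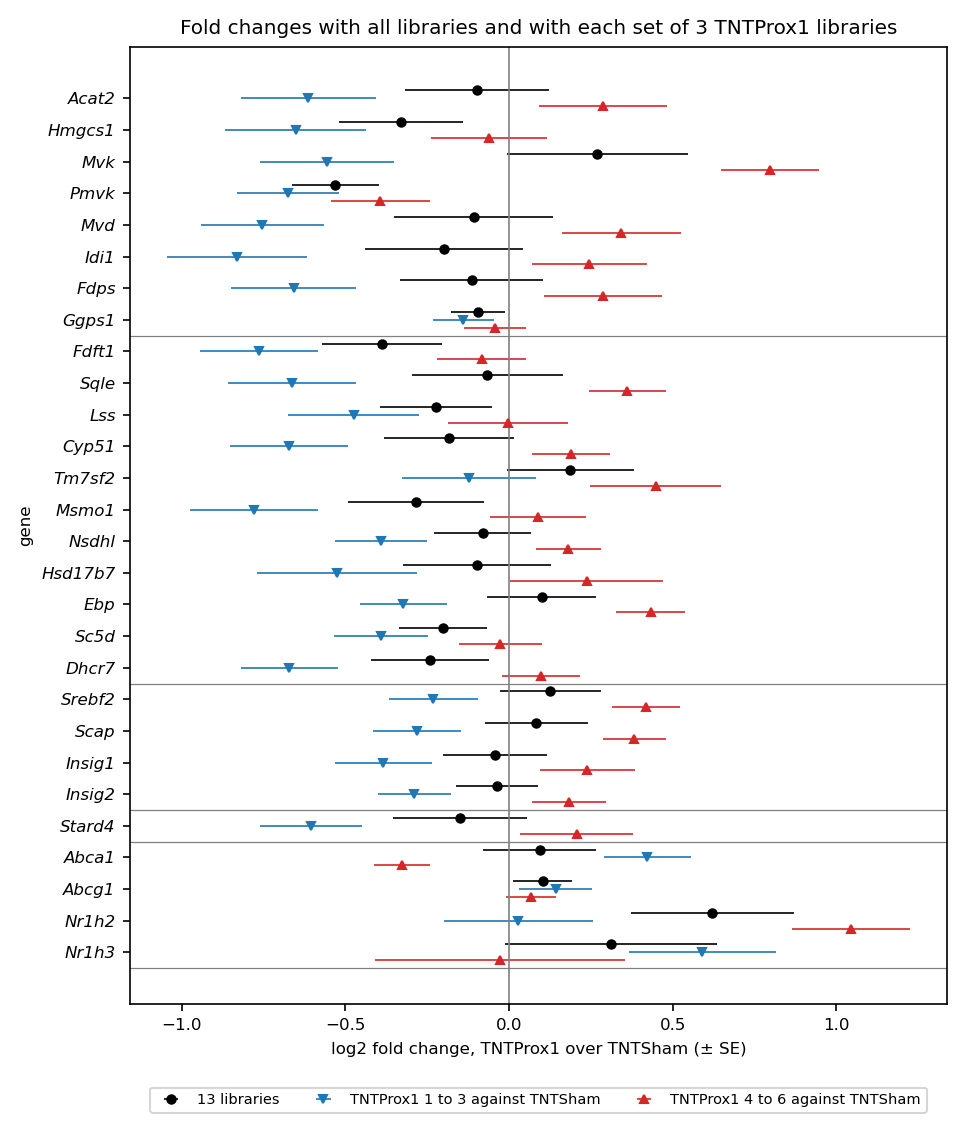
Log2 fold change of each gene, TNTProx1 over TNTSham, with its standard error, from all 13 libraries (black circles), from TNTProx1 1 to 3 against TNTSham (blue) and from TNTProx1 4 to 6 against TNTSham (red). Blue lies left of 0 in all 19 synthesis enzymes, and red lies right of 0 in 13 of them. Pmvk, Ggps1, Abcg1 and Nr1h2 are among the genes whose 3 estimates fall on 1 side of 0.

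Sebocyte and skeletal muscle marker sums parted TNTProx1 1 to 3, the lower, from TNTProx1 4 to 6, as the synthesis sum did. The keratinocyte sum did not, since TNTProx1 1 lay inside the range of TNTProx1 4 to 6. Against the TNTSham range the 3 marker sums followed the synthesis sum only in part, most clearly in TNTProx1 2. The summed level of 11 keratinocyte markers was 32960, 6303 and 19330 CPM in TNTProx1 1 to 3, against 31520 to 58160 CPM in TNTProx1 4 to 6 and 28520 to 43120 CPM in TNTSham. The summed level of 8 sebocyte markers was 544, 395 and 782 CPM in TNTProx1 1 to 3, against 854 to 1017 CPM in TNTProx1 4 to 6 and 703 to 1378 CPM in TNTSham. The summed level of 8 skeletal muscle markers was 1400, 537 and 1195 CPM in TNTProx1 1 to 3, against 1775 to 1899 CPM in TNTProx1 4 to 6 and 1260 to 3403 CPM in TNTSham. TNTProx1 2 had the lowest keratinocyte, sebocyte and muscle sums of the 13 libraries and was the lowest for 15 of 19 synthesis enzymes, where it was the lowest for 15.5% of all tested genes. TNTProx1 1 had a keratinocyte sum within the TNTSham range. Its sebocyte sum, 544 CPM, and its synthesis sum, 216 CPM per kilobase, lay below the TNTSham ranges. In that library Krt5, Krt10, Krt15 and Krtdap each lay below their TNTSham range and the other keratinocyte markers inside theirs. TNTProx1 3 had a sebocyte sum within the TNTSham range. Its keratinocyte sum, 19330 CPM, and its synthesis sum, 221 CPM per kilobase, lay below the TNTSham ranges. TNTSham 5 had the highest keratinocyte sum of TNTSham, 43120 CPM. It had the lowest sebocyte sum of TNTSham, 703 CPM, and the lowest synthesis sum, 244 CPM per kilobase. TNTSham 7 was the highest library for 9 of the 19 enzymes, against 6.78% of all tested genes, with a keratinocyte sum of 32610 CPM and a sebocyte sum of 1210 CPM. Of the keratinocyte markers 10 of 11 had log2 fold changes below 0 over all 13 libraries, and of the sebocyte markers 7 of 8. TNTProx1 2 was the lowest library for all 11 keratinocyte markers and for 7 of the 8 sebocyte markers. Over all 13 libraries the fibroblast list and the osteoclast and bone list had the opposite sign, above 0. Neither sum parted TNTProx1 1 to 3 from TNTProx1 4 to 6. The summed level of 6 fibroblast markers was 19480, 28440 and 45160 CPM in TNTProx1 1 to 3, against 20190 to 29460 CPM in TNTProx1 4 to 6 and 14260 to 24190 CPM in TNTSham, and 6 of 6 had log2 fold changes above 0. The summed level of 6 osteoclast and bone markers was 819.6 to 1480 CPM in the 6 TNTProx1 libraries and 396.1 to 815.1 CPM in TNTSham, so the groups did not overlap, and their median log2 fold change was 0.92. The part of these cell types in the synthesis values was not tested.

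**Figure D3:**
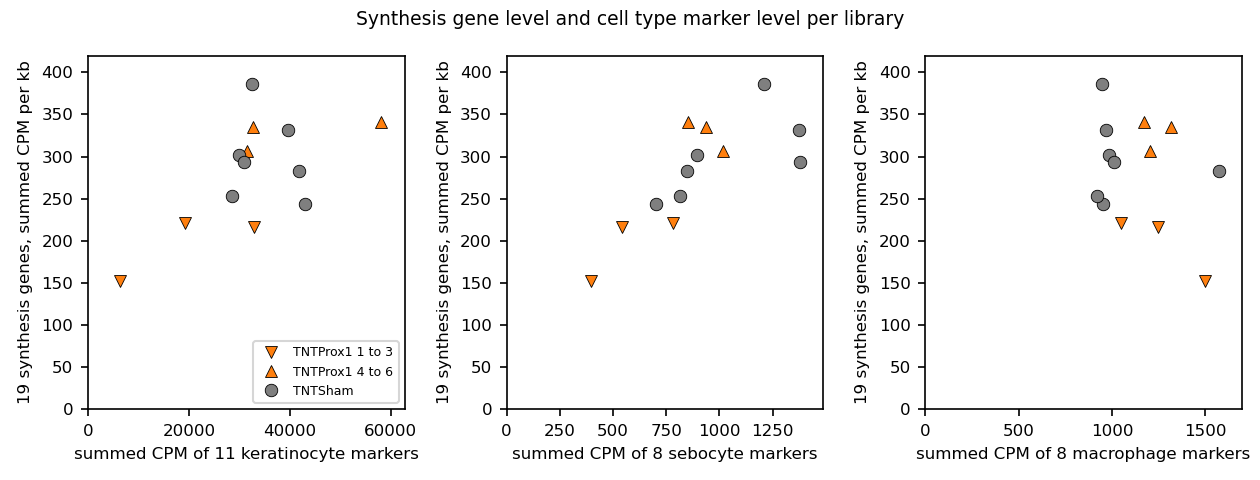
Summed level of the 19 synthesis enzymes (CPM per kilobase) against the summed CPM of 11 keratinocyte, 8 sebocyte and 8 macrophage markers, 1 point per library. TNTProx1 1 to 3 (downward triangles) lie lowest on the vertical axis, at 153 to 221, and TNTProx1 2 also has the lowest keratinocyte and sebocyte sums, at 6303 and 395 CPM.

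Among the early enzymes, Pmvk, the phosphomevalonate kinase, was the gene nearest to the threshold and the only synthesis enzyme with a p under 0.05 over all 13 libraries. Pmvk (ENSMUSG00000027952.17, chromosome 3) stood at 17.3, 13.6 and 16.3 CPM in TNTProx1 1 to 3 and at 17.7, 17.6 and 21.7 CPM in TNTProx1 4 to 6, against a lowest value of 17.1, a median of 26.3 and a highest value of 28.7 CPM in TNTSham. TNTProx1 2 and 3 lay below the TNTSham range, and all 6 lay below all TNTSham libraries other than TNTSham 6. The mean was 17.4 ± 2.63 CPM in TNTProx1 (SD, n = 6) and 25.1 ± 3.96 CPM in TNTSham (SD, n = 7). The log2 fold change was -0.53 ± 0.13 (SE), for which edgeR gave an adjusted p of 0.127 and DESeq2 one of 0.00898. It was -0.68 ± 0.16 with TNTProx1 1 to 3 and -0.39 ± 0.15 with TNTProx1 4 to 6, so for Pmvk both sets of libraries lay on the same side of TNTSham.

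Hmgcs1, the cytosolic HMG-CoA synthase that feeds the path, had the highest mean level per length of the 28 genes in both groups, in TNTProx1 level with Abca1 within the spread. It stood at 53.2 ± 13.8 CPM per kilobase in TNTProx1 (SD, n = 6) and 66.9 ± 16.6 in TNTSham (SD, n = 7). In CPM Hmgcs1 was 226, 138 and 224 in TNTProx1 1 to 3 and 280, 280 and 317 in TNTProx1 4 to 6, against 240, 285 and 465 as lowest, median and highest in TNTSham. TNTProx1 1 to 3 lay below the TNTSham range and TNTProx1 4 to 6 inside it, and the top of that range was TNTSham 7 alone. The log2 fold change was -0.33 ± 0.19 (SE, adjusted p = 0.516) over 13 libraries and -0.65 ± 0.22 with TNTProx1 1 to 3.

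Idi1, which isomerises isopentenyl diphosphate, showed the widest displacement of the early enzymes in TNTProx1 1 to 3. It stood at 47.2, 34.5 and 57.0 CPM in TNTProx1 1 to 3 and at 99.2, 99.3 and 91.5 CPM in TNTProx1 4 to 6, against 56.7, 81.8 and 114 CPM as lowest, median and highest in TNTSham. The log2 fold change with TNTProx1 1 to 3 was -0.83 ± 0.21 (SE, adjusted p = 0.0747), and over 13 libraries it was -0.20 ± 0.24. Mvd, the mevalonate diphosphate decarboxylase, and Fdps, which makes farnesyl diphosphate, had -0.75 ± 0.19 and -0.66 ± 0.19 with TNTProx1 1 to 3. Acat2, a cytosolic thiolase that opens the path, had -0.61 ± 0.21 there. The predicted gene Gm43738 covers 26.7% of the Fdps exon bases on the same strand, so the Fdps counts are uncertain.

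Mvk, the mevalonate kinase one step before Pmvk, had the opposite sign from it over 13 libraries. Mvk stood at 10.5, 12.2 and 18.6 CPM in TNTProx1 1 to 3 and at 36.2, 34.8 and 33.7 CPM in TNTProx1 4 to 6, against 14.7, 19.1 and 27.2 CPM as lowest, median and highest in TNTSham. TNTProx1 1 and 2 lay below the TNTSham range and TNTProx1 4 to 6 above it. Its log2 fold change was 0.27 ± 0.28 (SE, adjusted p = 0.726) over 13 libraries, -0.56 ± 0.21 with TNTProx1 1 to 3 and 0.80 ± 0.15 with TNTProx1 4 to 6. Ggps1, which leaves the sterol path to make geranylgeranyl diphosphate for protein prenylation, varied least, between 37.5 and 46.9 CPM in TNTProx1 and between 37.7 and 48.2 CPM in TNTSham.

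The squalene and sterol enzymes opened with Fdft1, squalene synthase, the step committed to sterols. Fdft1 stood at 31.0, 18.1 and 31.2 CPM in TNTProx1 1 to 3 and at 36.1, 46.1 and 45.3 CPM in TNTProx1 4 to 6, against 34.2, 47.0 and 52.5 CPM as lowest, median and highest in TNTSham. TNTProx1 1 to 3 were below the TNTSham range and TNTProx1 4 to 6 within it. The log2 fold change was -0.39 ± 0.18 (SE, adjusted p = 0.408) over 13 libraries and -0.76 ± 0.18 with TNTProx1 1 to 3. Exons of the cathepsin gene Ctsb cover 18.3% of the Fdft1 exon bases on the opposite strand, and no source used here states the strand setting of the counting, so reads from that stretch may not be told apart. The same holds for 12.1% of the exon bases of Hmgcs1, 13.2% of Scap and 9.22% of Idi1, while Vps51 covers 12.1% of Tm7sf2 on the same strand.

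Sqle, the squalene epoxidase and a rate-limiting step of the late path, spread widely within TNTProx1. It stood at 62.8, 29.3 and 49.9 CPM in TNTProx1 1 to 3 and at 91.3, 87.5 and 108 CPM in TNTProx1 4 to 6, against 63.7, 74.9 and 86.8 CPM as lowest, median and highest in TNTSham. TNTProx1 1 to 3 were all below the TNTSham range and TNTProx1 4 to 6 all above it, so no TNTProx1 library lay inside it. The log2 fold change of Sqle, -0.07 ± 0.23 (SE, adjusted p = 0.926), averages libraries on both sides. The mean was 71.5 ± 29.4 CPM in TNTProx1 (SD, n = 6) and 74.9 ± 9.75 CPM in TNTSham (SD, n = 7).

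Dhcr7, the reductase of the last step to cholesterol, stood at 59.8, 35.3 and 51.5 CPM in TNTProx1 1 to 3 and at 67.6, 83.5 and 96.8 CPM in TNTProx1 4 to 6, against 66.9, 77.9 and 88.5 CPM as lowest, median and highest in TNTSham. All of TNTProx1 1 to 3 were below the TNTSham range. Its log2 fold change with TNTProx1 1 to 3 was -0.67 ± 0.15 (SE, adjusted p = 0.0685) and over 13 libraries -0.24 ± 0.18. Msmo1, the methylsterol monooxygenase, and Cyp51, the lanosterol demethylase, had -0.78 ± 0.20 and -0.67 ± 0.18 with TNTProx1 1 to 3. Lss, lanosterol synthase, which closes the sterol ring, and Hsd17b7, a ketosteroid reductase, had -0.47 ± 0.20 and -0.53 ± 0.24, and both were lower in TNTSham 1 than in any other TNTSham library, at 51.9 and 66.1 CPM.

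Sc5d, the lathosterol oxidase, was the squalene or sterol enzyme with the smallest p after Fdft1. It stood at 47.7, 33.7 and 33.7 CPM in TNTProx1 1 to 3 and at 50.8, 40.8 and 55.7 CPM in TNTProx1 4 to 6, against 42.7, 47.5 and 60.7 CPM as lowest, median and highest in TNTSham, so the groups overlapped. Its log2 fold change was -0.20 ± 0.13 (SE, adjusted p = 0.583). Tm7sf2, a sterol reductase, had the lowest level per length of the synthesis enzymes, 1.80 ± 0.455 CPM per kilobase in TNTProx1 (SD, n = 6) and 1.58 ± 0.352 in TNTSham (SD, n = 7), and a log2 fold change of 0.19 ± 0.19.

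Nsdhl, a sterol dehydrogenase, and Ebp, the sterol isomerase, are on the X chromosome. TNTSham 1 had 2095 CPM of Xist, the RNA of the inactive X, and the other 12 libraries 2.01 CPM or less. Ebp stood at 43.6 CPM in TNTSham 1 and at 31.9 to 39.5 CPM in the other TNTSham libraries, while Nsdhl at 24.5 CPM was not the highest of them. Without TNTSham 1 the log2 fold changes were 0.15 for Ebp and -0.07 for Nsdhl, against 0.10 and -0.08 with it.

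In all 4 SREBP2 control genes each of TNTProx1 1 to 3 lay below each of TNTProx1 4 to 6, against 23.1% of all tested genes, with a median log2 fold change of -0.29 for TNTProx1 1 to 3. Srebf2 stood at 81.1, 79.2 and 114 CPM in TNTProx1 1 to 3 and at 133, 148 and 146 CPM in TNTProx1 4 to 6, against 91.7, 104 and 130 CPM as lowest, median and highest in TNTSham. Scap, its escort to the Golgi, stood at 50.9, 54.7 and 79.2 CPM in TNTProx1 1 to 3 and at 86.7, 105 and 98.8 CPM in TNTProx1 4 to 6, against 63.4, 76.4 and 82.4 CPM in the same order in TNTSham. For both genes TNTProx1 1 and 2 were below the TNTSham range, TNTProx1 3 inside it and TNTProx1 4 to 6 above it. Over 13 libraries the log2 fold changes were 0.13 ± 0.15 for Srebf2 and 0.08 ± 0.16 for Scap (SE), with an adjusted p of 0.77 for Srebf2 and 0.854 for Scap. With TNTProx1 4 to 6 they were 0.42 ± 0.10 and 0.38 ± 0.10, with an adjusted p of 0.0104 for Srebf2 and 0.0118 for Scap in a comparison that called 29.6% of genes. Insig1 and Insig2, which hold SREBP2 back, had -0.38 ± 0.15 and -0.29 ± 0.11 with TNTProx1 1 to 3, and -0.04 ± 0.16 and -0.04 ± 0.13 over 13 libraries. Insig1 is itself a target of SREBP2.

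Stard4, a cytosolic sterol carrier and SREBP2 target, stood at 62.2, 41.0 and 56.9 CPM in TNTProx1 1 to 3 and at 70.7, 80.4 and 127 CPM in TNTProx1 4 to 6, against 65.6, 77.6 and 103 CPM as lowest, median and highest in TNTSham. TNTProx1 1 to 3 were below the TNTSham range and TNTProx1 6 above it. For Stard4 the log2 fold change was -0.15 ± 0.20 (SE, adjusted p = 0.797) over 13 libraries, -0.61 ± 0.16 with TNTProx1 1 to 3 and -0.03 without TNTProx1 2.

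**Figure D4:**
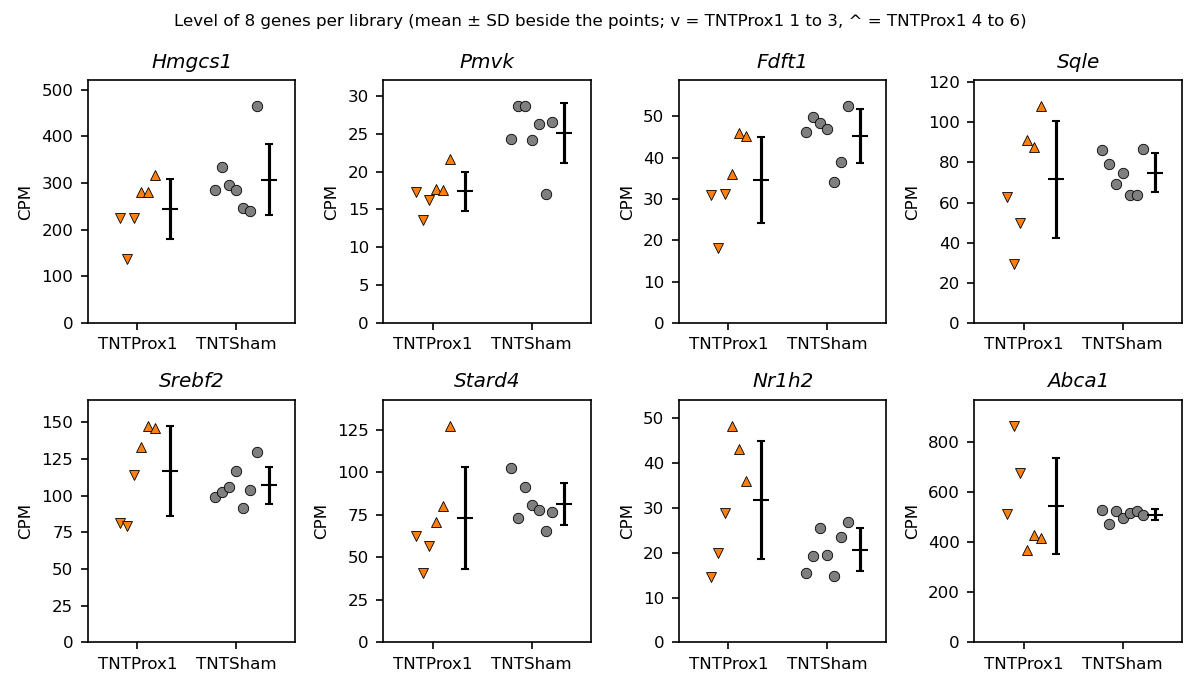
CPM of 8 genes per library, TNTProx1 left and TNTSham right, with the mean and SD beside the points. In Sqle, Srebf2 and Stard4 the TNTProx1 libraries 1 to 3 (downward triangles) lie below libraries 4 to 6 (upward triangles), in Abca1 they lie above them, and in Pmvk all 6 lie low.

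Of the 4 efflux genes only Nr1h2 had each of TNTProx1 1 to 3 below each of TNTProx1 4 to 6, and Abca1 had the reverse order. Abca1, the pump that loads cholesterol onto apolipoproteins, had 514, 866 and 676 CPM in TNTProx1 1 to 3 and 368, 427 and 417 CPM in TNTProx1 4 to 6, against 472, 516 and 528 CPM as lowest, median and highest in TNTSham. TNTProx1 2 and 3 lay above the narrow TNTSham range and TNTProx1 4 to 6 below it. The mean was 545 ± 191 CPM in TNTProx1 (SD, n = 6) and 510 ± 20.5 CPM in TNTSham (SD, n = 7). The resulting log2 fold change, 0.09 ± 0.17 (SE, adjusted p = 0.851), was -0.087 without TNTProx1 2. Abca1 had the second highest level per length of the 28 genes in both groups, 52.6 ± 18.4 CPM per kilobase in TNTProx1 (SD, n = 6) and 49.3 ± 1.97 in TNTSham (SD, n = 7).

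Abcg1, which passes cholesterol to lipoprotein particles, stood at 59.99, 89.96 and 69.9 CPM in TNTProx1 1 to 3 and at 68.9, 72.2 and 66.1 CPM in TNTProx1 4 to 6, against 60.8, 68.1 and 70.2 CPM as lowest, median and highest in TNTSham. The groups overlapped, and the log2 fold change was 0.10 ± 0.09 (SE, adjusted p = 0.687). TNTProx1 2 was the highest library for Abca1, Abcg1 and Nr1h3, 3 of the 4 efflux genes, and the highest for 12.9% of all tested genes. The summed level of 8 macrophage markers in it was 1496 CPM, the highest of TNTProx1, where the others stood at 1047 to 1318 CPM, and above every TNTSham library except TNTSham 1 at 1570 CPM, the others standing at 920 to 1011 CPM. Macrophages express these pumps, and 7 of the 8 markers had log2 fold changes above 0 over 13 libraries. In TNTSham 1 Abca1 stood at 528 CPM, the highest of TNTSham, and Abcg1 at 66.0 CPM, inside the range of the other TNTSham libraries. TNTProx1 3, with the lowest macrophage sum of TNTProx1, had 676 CPM of Abca1, more than any library except TNTProx1 2. The part of macrophages in the efflux values was not tested.

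Nr1h2, the widely expressed liver X receptor beta, was the member with the highest log2 fold change over 13 libraries, 0.62 ± 0.25 (SE, adjusted p = 0.318). It stood at 14.5, 20.0 and 28.9 CPM in TNTProx1 1 to 3 and at 48.3, 43.1 and 35.9 CPM in TNTProx1 4 to 6, against 14.8, 19.4 and 26.8 CPM as lowest, median and highest in TNTSham. TNTProx1 3 to 6 lay above the TNTSham range and TNTProx1 1 below it. With TNTProx1 1 to 3 the log2 fold change was 0.03 ± 0.23, and with TNTProx1 4 to 6 it was 1.05 ± 0.18 (adjusted p = 0.00172). The value over 13 libraries thus rests on TNTProx1 4 to 6. Nr1h3, liver X receptor alpha, had the lowest level per length of the 28 genes, with 3.42 ± 1.61 CPM in TNTProx1 (SD, n = 6) and 2.75 ± 0.432 CPM in TNTSham (SD, n = 7).

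Of 36 other genes of sterol handling, fixed by list, 0 passed the edgeR test over 13 libraries and 5 had an unadjusted p under 0.05, all 5 higher, against 8.33% of all tested genes higher. Uptake, transport and storage gave 4 of these 5 out of 14 genes, of which 7 were above 0 and 7 below, with a median log2 fold change of 0.09. Scarb1, the lipoprotein receptor that takes up cholesteryl ester, stood at 39.2, 51.2 and 63.5 CPM as lowest, median and highest in TNTProx1 and at 36.0, 39.1 and 45.9 CPM in the same order in TNTSham. For Scarb1 the log2 fold change was 0.36 ± 0.11 (SE, adjusted p = 0.204). Npc2, which carries cholesterol inside lysosomes, stood at 110, 173 and 189 CPM in TNTProx1 and at 107, 128 and 150 CPM in TNTSham, with a log2 fold change of 0.37 ± 0.13 (adjusted p = 0.243). With TNTProx1 1 to 3 the values were 0.23 ± 0.11 for Scarb1 and 0.16 ± 0.13 for Npc2 (SE, adjusted p of 0.246 for Scarb1 and 0.544 for Npc2), and TNTProx1 1 lay inside the TNTSham range for both. With TNTProx1 4 to 6 they were 0.48 ± 0.12 and 0.56 ± 0.10, with an adjusted p of 0.0107 for Scarb1 and 0.00186 for Npc2.

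Of 10 genes that cut SREBP2 or degrade sterol sensors, 5 were above 0 and 5 below, with a median log2 fold change of 0.01. Aup1, a protein of lipid droplets and of degradation at the endoplasmic reticulum, had 0.27 ± 0.14 (SE). Of 12 genes of oxysterol and isoprenoid metabolism, 8 were above 0 and the median was 0.04. Nus1, a subunit of the enzyme that makes dolichol for protein glycosylation, stood at 76.4 to 90.3 CPM in TNTProx1 and at 64.1 to 76.4 CPM in TNTSham. The libraries of the groups met at 76.4 CPM, and the log2 fold change of Nus1 was 0.26 ± 0.08 (SE, adjusted p = 0.174). Cyp39a1, an oxysterol hydroxylase, had -0.35 ± 0.20.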

How the data were processed

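Raw counts per gene were deposited for 13 libraries. The submitters' processing notes name fastp 0.20.1 for trimming, HISAT2 2.2.1 with build GRCm39 for alignment and featureCounts (Subread 2.0.2) for the deposited counts. No source used here gives the annotation release, strand setting or rule for multiply aligned reads. Symbols, chromosomes and exon lengths came from GENCODE M21, an older build, which matched 52081 of 55357 genes. Exon length is the union over all transcripts.

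Counts were scaled by TMM, filtered by filterByExpr and tested with the edgeR 4.0.16 quasi-likelihood test (R 4.3.3) on group alone, with Benjamini-Hochberg adjustment over all 22876 genes and a threshold of 0.05. SE is the log2 fold change divided by the root of F. The filter was rerun for each set of libraries. Alternatives were DESeq2 1.42.0, limma 3.58.1 (voom with quality weights, trend), other scalings and filters, a covariate and leaving out libraries. The tests were also run on simulated counts. Libraries were numbered in accession order within each group. Members and lists were chosen with earlier results of these data known. By rule the 2 members of smallest p per role were described by library. Other genes so described, such as Idi1, Mvk, Sqle, Dhcr7 and Abca1, were chosen after their values were seen.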

Additional observations from a re-analysis of the deposited data

Results flagged for a closer look

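Of 56 sets of values (28 genes in each of 2 groups), 4 held a library far from the rest of its group, and chance alone gives such a gap in about 1 of 20. All 4 were in TNTSham. Hmgcs1 stood at 465 CPM in TNTSham 7, where the next highest was 334 and the lowest 240 CPM. Fdps stood at 56.4 CPM in TNTSham 7, where the next highest was 38.4 and the lowest 27.2 CPM. Pmvk stood at 17.1 CPM in TNTSham 6, where the next lowest was 24.1 and the highest 28.7 CPM. Nsdhl stood at 19.2 CPM in TNTSham 5, where the next lowest was 23.4 and the highest 24.7 CPM. Without TNTSham 7 the log2 fold change of Hmgcs1 was -0.20, and without TNTSham 6 that of Pmvk was -0.61.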

How the results depend on the processing

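Log2 fold changes are TNTProx1 over TNTSham. Over all tested genes the count passing an adjusted p under 0.05 was 0 in the edgeR test, 552 with DESeq2, 573 with limma voom and quality weights, 1 with no low-count filter, 545 with the TEC share as a covariate, 7047 without TNTProx1 1 to 3, and 0 to 589 when 1 library was left out (589 without TNTProx1 1 and 34 without TNTSham 5). Of the 28 members 0 passed in edgeR and 1 with DESeq2 and with voom (Pmvk, lower). The TEC share as a covariate gave 3 (Pmvk, Fdft1 and Dhcr7, all lower), where 2.38% of all tested genes passed. The count was 7 without TNTProx1 1 to 3 (6 higher and 1 lower), where 29.6% passed, and 0 when 1 library was left out. At an unadjusted p under 0.05 there were 2 (12.2% of all tested genes), against 15 with voom (19.7% of all genes), 21 without TNTProx1 4 to 6 (21.4%), 18 with the TEC share (18.6%), 9 without TNTProx1 1 to 3 (41.2%), 3 with the keratinocyte score as a covariate (20.4%) and 2 to 7 when 1 library was left out (7 without TNTProx1 6). Medians without TNTProx1 4 to 6 were -0.66 for the early enzymes, -0.53 for the squalene and sterol enzymes, -0.29 for the control genes and -0.61 for Stard4. With the TEC share the medians were -0.52 (early), -0.40 (squalene and sterol), -0.18 (control), -0.49 (Stard4) and 0.25 (efflux), and with voom -0.46, -0.41, -0.14, -0.44 and 0.32 in that order. The control median, 0.02 in the edgeR test, was also below 0 with upper quartile scaling (-0.0089) and limma trend (-0.0095). Without TNTProx1 1 to 3 the sterol median was 0.18 and the control median 0.31. When 1 library was left out the medians ran from -0.27 to -0.03 (early), -0.27 to -0.04 (squalene and sterol), -0.05 to 0.11 (control), -0.38 to -0.03 (Stard4) and 0.07 to 0.32 (efflux). The keratinocyte score gave medians of 0.04, 0.03, 0.13, 0.06 and 0.04 in that order.

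Signs turned as follows. With voom the log2 fold change was -0.20 for Mvk, -0.0020 for Tm7sf2, -0.19 for Ebp, -0.010 for Srebf2 and -0.066 for Scap. Without TNTProx1 4 to 6 it was -0.56 for Mvk, -0.12 for Tm7sf2, -0.32 for Ebp, -0.23 for Srebf2 and -0.28 for Scap, and with the TEC share -0.31, -0.0047, -0.20, -0.11 and -0.16 in the same order. Without TNTProx1 1 to 3 it was 0.29 for Acat2, 0.34 for Mvd, 0.25 for Idi1, 0.29 for Fdps, 0.36 for Sqle, 0.19 for Cyp51, 0.088 for Msmo1, 0.18 for Nsdhl, 0.24 for Hsd17b7, 0.098 for Dhcr7, 0.24 for Insig1, 0.18 for Insig2, 0.21 for Stard4, -0.33 for Abca1 and -0.027 for Nr1h3. With the keratinocyte score it was 0.054 for Acat2, 0.063 for Mvd, 0.016 for Idi1, 0.059 for Fdps, 0.19 for Sqle, 0.033 for Cyp51, 0.074 for Nsdhl, 0.047 for Hsd17b7, 0.055 for Insig1, 0.029 for Insig2, 0.061 for Stard4 and -0.18 for Abca1. When 1 library was left out it ran from -0.25 to 0.031 for Acat2, -0.28 to 0.018 for Mvd, -0.26 to 0.0090 for Fdps, -0.22 to 0.094 for Sqle, -0.17 to 0.031 for Nsdhl, -0.23 to 0.0072 for Hsd17b7, -0.0076 to 0.21 for Ebp, -0.014 to 0.18 for Scap, -0.15 to 0.038 for Insig1, -0.13 to 0.029 for Insig2 and -0.087 to 0.18 for Abca1. For Pmvk it ran from -0.61 to -0.47. The cause of these changes was not tested. No paired analysis was possible because the labels give no replicate numbers and link no sample of one group to a sample of the other. The sets without TNTProx1 1 to 3 and with the keratinocyte score were added after the data were seen.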
